A study of Homo sapiens with 12 samples.

Results

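The genes described here are the membrane carriers that move organic ions, urate, phosphate and glucose across the kidney tubule and their family members, measured by RNA sequencing in Caki-1 cells, a long-established line from a human kidney cancer, and in a subline of it selected for cabozantinib resistance. They were chosen by symbol alone, as the rows named SLC22A, SLCO, SLC47A1 or 2, SLC17A, SLC34A1 to 3, SLC20A1 or 2, and SLC5A followed by a digit, which gave 63 of the 20114 gene symbols in the tables. This choice by symbol also took in SLC22A18AS, which is named as the antisense partner of SLC22A18 and not as a carrier. It is counted with the transporters, and with the SLC22 genes, in the text and figures. Cabozantinib inhibits receptor tyrosine kinases, among them the VEGF receptors, MET and AXL. The parental cells were grown in RPMI medium. The resistant subline was raised in McCoy's medium at 5 µM of the drug, brought up to 20 µM within 2 months, and held at 10 µM from then on. Medium, drug and selection thus separate the lines together and cannot be told apart, and serum was given to both. The labels do not say whether the resistant line is a clone, nor whether its replicates are separate cultures. The p-values therefore measure only the spread between these libraries, which may be technical. Each line had 2 RNA libraries.

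Reabsorption and secretion in the proximal tubule run on the sodium gradient that the sodium pump sets up. The SLC5 and SLC34 carriers draw in glucose and phosphate with sodium from the tubular fluid, SLC20 carriers supply phosphate to nearly every cell, and SLC22 carriers bring drugs and waste ions in from the blood or exchange them at the apical side. The SLCO proteins take up bulky organic anions such as steroid sulfates and thyroid hormone, the SLC47 proteins export organic cations in exchange for protons, and the SLC17 family holds urate and phosphate carriers of the tubule beside carriers of lysosomes and secretory vesicles.

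Library totals ran from 10584085 to 14664712 estimated counts. The resistant pair differed from each other far more than the parental pair did, with a chi-square statistic of 46.4 per gene against 1.93. A gene was tested when at least 2 of the 4 libraries held 10 or more counts, which left 12892 genes. PAX8, a transcription factor of kidney epithelium, stood at 557 and 572 CPM (counts scaled to library size with TMM factors) in the parental libraries and at 352 and 426 in the resistant ones. VIM, the intermediate filament gene vimentin, stood at 4066 and 4060 CPM against 2811 and 2987, and NNMT, an enzyme abundant in clear cell carcinoma, at 373 and 375 against 283 and 553. PAX2 had 0 counts, and CA9, a carbonic anhydrase typical of clear cell carcinoma, was below the filter. Of 12 proximal tubule markers 6 were tested, and the endocytic receptor gene LRP2 and the enzyme gene PCK1 had 0 counts in all 4 libraries. The summed level of these 12 was 234 to 243 CPM in the parental and 349 to 373 CPM in the resistant line. The aminopeptidase gene ANPEP held the largest part of this sum, at a mean of 145 CPM against 230 CPM. Of 12 markers of the loop, distal tubule and collecting duct, 1 was tested and 6 had 0 counts. The list for blood, endothelium and stroma had 12 measured markers, of which 5 were tested, and CD3E, HBB and CDH5 were at 0. Their summed level was 185 to 187 CPM in the parental and 115 to 121 CPM in the resistant line. The largest single difference in this sum was that of CD68, a lysosomal glycoprotein, at a mean of 86.6 CPM against 42.7 CPM. The part of the summed difference in the results below was not tested. Fewer cells of a type and less RNA per cell cannot be told apart in such bulk samples.

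Of the 63 members, 26 passed the count filter, 15 had some counts but stayed under it, and 22 had 0 counts in all 4 libraries. Among SLC22 genes the silent ones were SLC22A6 and SLC22A8, the basolateral uptake carriers OAT1 and OAT3, SLC22A7, SLC22A12, the urate exchanger URAT1, and SLC22A9, SLC22A10, SLC22A16, SLC22A24 and SLC22A25. SLC5A1, the high-affinity glucose cotransporter SGLT1, SLC5A4, SLC5A7, SLC5A8 and SLC5A11 were likewise at 0. In the SLCO family SLCO1B1 and SLCO1B3, the hepatocyte uptake carriers, SLCO1B7, SLCO1C1, SLCO2A1 and SLCO6A1 were silent, and in the SLC17 family SLC17A2 and SLC17A6. A count of 0 allows a level of up to 0.194 to 0.292 CPM, depending on the library, taking 3 counts as the upper limit for counting error only.

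The phosphate cotransporters SLC34A1 and SLC34A3 of the renal brush border belonged to the low group. SLC34A1, which encodes the main proximal tubule phosphate carrier, had 1 and 0 counts in the parental and 1 and 0 in the resistant libraries, and SLC34A3 had 1 and 2 against 2 and 0. SLC22A2, the basolateral cation carrier OCT2, had 1 and 1 counts against 4 and 9, outside the filter. SLC22A18AS, with 2 and 5 counts against 12 and 12, was just inside it. Other low members were SLC17A4, SLC17A7, SLC17A8, SLC22A11, SLC22A13, SLC22A14, SLC5A5, SLC5A9, SLC5A10, SLC5A12 and SLCO5A1, none with more than 8 counts in a library. Of the 15 low members 5 had counts in resistant libraries only, led by SLC5A10 with 5 and 3 counts, and 1, SLC22A14, in a parental library only. No test was made at these depths.

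RefSeq windows upstream of the start (250 bases, GRCh38.p14) were at hand for 43 of the 63 members. They are shown for SLC34A1 and SLC22A6, carriers of the tubule at or near 0 here, and for SLC34A2 and SLC17A5, which were expressed and fell in the resistant line. Capitals mark the letters searched on both strands, namely GTTAAT and CAAAGTC, which occur within binding sites of tubular transcription factors, GGGCGG, the GC box, TATAAA, and CACGTG, the E box. None of the 5 contains another, though neighbours can share an end letter.
SLC34A1, chr5:177384184-177384433, plus strand: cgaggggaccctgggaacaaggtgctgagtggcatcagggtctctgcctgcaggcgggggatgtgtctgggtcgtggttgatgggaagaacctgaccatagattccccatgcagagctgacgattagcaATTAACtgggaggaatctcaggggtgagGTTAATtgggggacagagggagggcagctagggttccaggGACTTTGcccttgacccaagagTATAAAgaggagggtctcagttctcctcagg
SLC22A6, chr11:62984968-62985217, minus strand: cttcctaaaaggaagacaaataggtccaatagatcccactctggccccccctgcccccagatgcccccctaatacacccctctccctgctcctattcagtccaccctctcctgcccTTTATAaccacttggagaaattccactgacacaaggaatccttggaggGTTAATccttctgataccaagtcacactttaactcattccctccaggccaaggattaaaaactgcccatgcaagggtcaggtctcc
SLC34A2, chr4:25655601-25655850, plus strand, the upstream of its listed starts: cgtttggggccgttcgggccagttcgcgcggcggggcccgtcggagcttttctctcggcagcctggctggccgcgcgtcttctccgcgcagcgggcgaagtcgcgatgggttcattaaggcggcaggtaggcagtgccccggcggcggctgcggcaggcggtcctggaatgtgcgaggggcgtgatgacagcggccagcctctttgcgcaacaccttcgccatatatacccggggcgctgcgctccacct
SLC17A5, chr6:73653993-73654242, minus strand: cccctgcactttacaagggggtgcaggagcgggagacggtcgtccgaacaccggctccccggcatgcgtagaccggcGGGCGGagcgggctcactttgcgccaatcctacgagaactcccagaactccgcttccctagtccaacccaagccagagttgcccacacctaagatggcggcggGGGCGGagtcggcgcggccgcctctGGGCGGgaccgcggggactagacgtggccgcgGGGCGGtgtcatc
The SLC34A1 window held GTTAAT at 2 places, CAAAGTC at 1 and TATAAA at 1, and the SLC22A6 window held GTTAAT and TATAAA once each. The SLC17A5 window held GGGCGG at 4 places and 28 CG pairs, and the SLC34A2 window shown held none of the letters searched and 33 CG pairs. The window of the other listed start of SLC34A2 (chr4:25656214-25656463, not shown) held TATAAA and CACGTG once each and 4 CG pairs, as many as the 4 of SLC34A1, while SLC22A6 had 0. Composition thus differed between the starts of 1 gene. Tested and untested members can be compared only in part, because 19 of the 26 tested and 24 of the 37 untested ones have a window. The median GC content was 68% over 25 windows of tested and 54.6% over 30 windows of untested members. GTTAAT was in 1 of the 25 and 8 of the 30 windows, TATAAA in 1 and 6, and GGGCGG in 13 and 9. These differences were not tested. Of all 35116 windows of this length 6.23% held GTTAAT, 2.91% CAAAGTC, 42.6% GGGCGG, 10.7% TATAAA and 6.34% CACGTG, with a median GC content of 58.0%. These matches describe the letters only.

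Per transcript length, 4 members led the expressed group. SLCO2B1 had the highest mean level, with 42.1 and 43.1 TPM (abundance scaled for length and library size) in the parental and 121.8 and 17.6 in the resistant libraries. SLC22A18, a carrier of an imprinted region whose substrates are little known, followed with 41.9 and 40.4 against 66.9 and 57.0 TPM, and SLC20A1, the widely expressed phosphate carrier PiT-1, with 40.7 and 35.3 against 75.7 and 44.3 TPM. SLCO4A1, an uptake carrier of thyroid hormone, stood at 42.4 and 35.2 against 23.8 and 20.7 TPM. The resistant values of SLC22A18 and SLC20A1 lay above both parental ones, those of SLCO4A1 lay below, and those of SLCO2B1 lay on either side. The first place of SLCO2B1 rests on resistant replicate 1, since its mean over 4 libraries, 56.2 TPM, was 34.3 TPM without that library, below the 46.4 TPM of SLC22A18. The next members by mean TPM were SLC5A6 and SLC17A5, at 17.5 and 14.7, and SLCO3A1, SLC20A2, SLC22A3, SLC5A2, SLC22A5 and SLC17A3, from 8.66 down to 4.77. The sodium-glucose carrier of the early proximal tubule, SLC5A2 (SGLT2), was thus measured at 6.65 and 7.10 TPM in the parental and 7.56 and 6.97 in the resistant line.

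**Figure D1:**
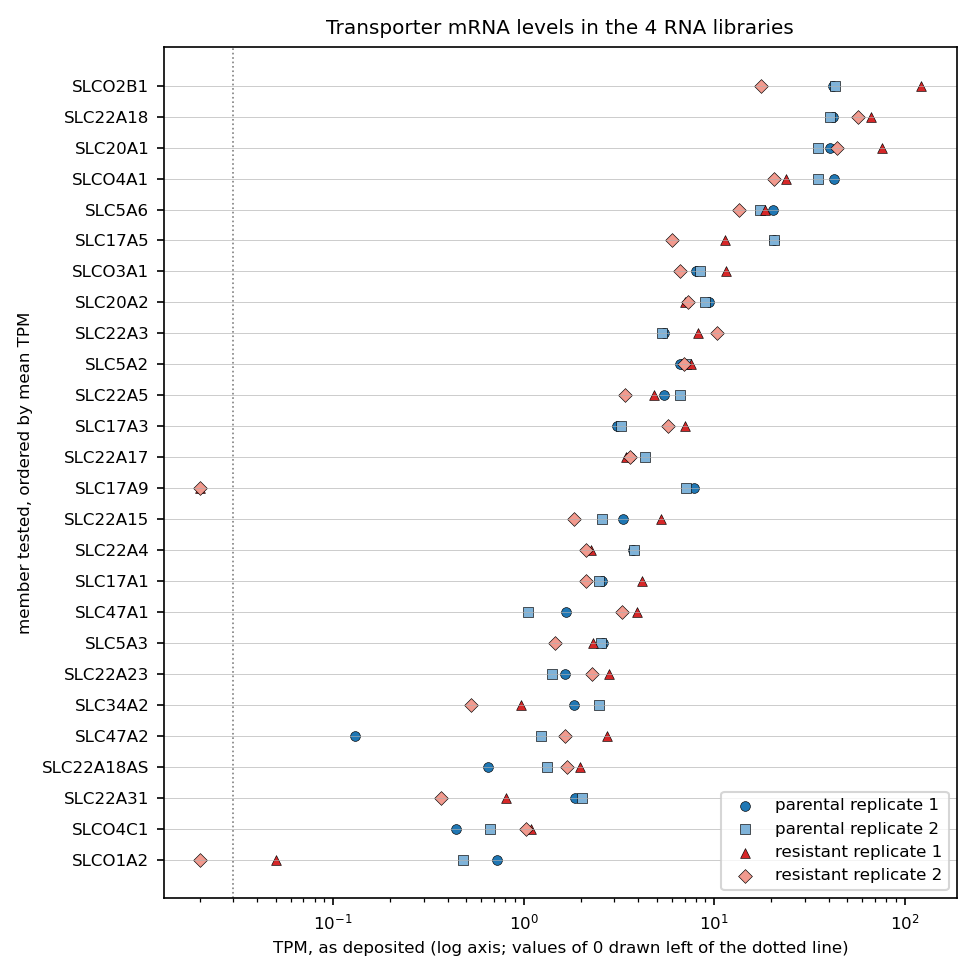
Deposited TPM (log axis) of the 26 tested transporters in each of the 4 RNA libraries, ordered by the mean, with 1 symbol per library and values of 0 drawn left of the dotted line. SLC17A9 has both resistant libraries at 0, and SLCO2B1 has its resistant libraries at 121.8 and 17.6, on either side of the parental pair.

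The comparison of the lines asked which of these carriers differ in the cabozantinib-resistant cells. With edgeR's quasi-likelihood test and Benjamini-Hochberg adjustment over all genes at 0.05, SLC17A9, SLCO4A1, SLC17A5 and SLC34A2 fell in the resistant line and SLC47A1 rose. These are 5 of 26 members, where 6.4% of all genes tested were called, with 4 of 26 lower, against 3.44%, and 1 higher, against 2.96%. The other 21 did not pass, and 13 of the 26 had an unadjusted p under 0.05, against 27% of all genes. The median log2 fold change (resistant over parental) of the 26 was 0.12, against 0.02 for all genes tested. Both resistant libraries lay above both parental ones in 9 members and below in 10, against 30.7% and 29.8% of all genes tested, so shares of this size were also the rule outside the family. SLC17A9, SLCO1A2 and SLC22A18AS passed the filter through 1 line only, where they are higher, so the filter favours a difference in them. Some of the 21 passed when a resistant library was left out, and such passes below are to be read beside the shares of that setting. That setting leaves the close parental pair to set the spread, and it called 26.1% of all genes higher and 27.1% lower with resistant replicate 1 left out, and 16.3% and 19.5% with resistant replicate 2 left out.

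SLC17A9, which loads ATP and other nucleotides into secretory vesicles and lysosomes, was not detected in the resistant libraries. SLC17A9 had 137 and 133 counts in the parental line, a level of 13.1 ± 0.321 CPM (SD, n = 2), and 0 counts in both resistant libraries. Taking 3 counts over both libraries as the floor, its resistant level was at least 124-fold lower (edgeR adjusted p = 0.00342). The call held under each of 14 alternative fits, those without a library included, and at the threshold of 0.01. SLC17A9 and SLCO4A1 lie near each other on chromosome 20, with 5 tested protein-coding genes between them in RefSeq gene order (GRCh38.p14). Those 5, MRGBP, OGFR, TCFL5, DIDO1 and GID8, had log2 fold changes from -0.23 to 0.38, and YTHDF1, next on the far side of SLC17A9, had 0.08. Of the 29 tested genes between them and in the 12 places on either side, 0 passed edgeR's test, against 6.4% of all genes tested. Their log2 fold changes ran from -0.27 to 0.55. None of these 29 genes was as low as SLC17A9 or SLCO4A1. The neighbours of SLC17A5 on chromosome 6, by contrast, included called genes in both directions. On the log2 scale OGFRL1 (-1.26), EEF1A1 (-0.76) and COL12A1 (-1.70) were lower, and FILIP1 (2.49) was higher.

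**Figure D2:**
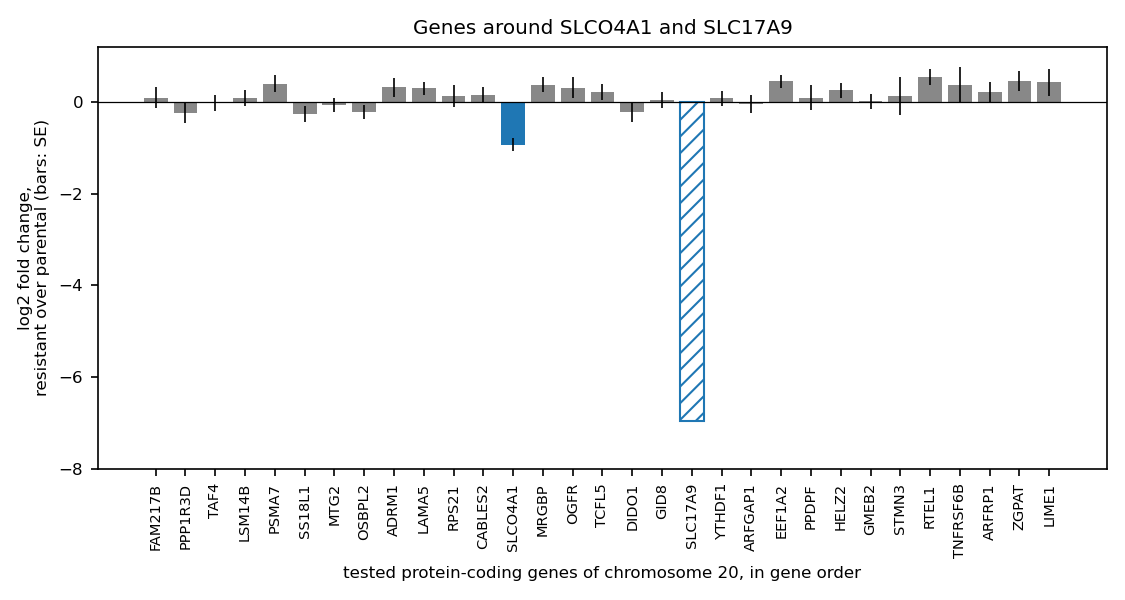
Log2 fold change (resistant over parental, error bars SE from edgeR) of tested protein-coding genes in their order along chromosome 20, from 12 genes before SLCO4A1 to 12 after SLC17A9. Blue marks an adjusted p under 0.05, and the hatched bar of SLC17A9 is drawn at its lower bound of 124-fold, since both resistant libraries had 0 counts. The 29 genes other than SLCO4A1 and SLC17A9 lie between -0.27 and 0.55.

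Of the other 3 tested SLC17 genes 1 passed, the lysosomal member, and the urate carriers did not. SLC17A5, which exports sialic acid from lysosomes, stood at 50.8 and 52.3 CPM in the parental and 27 and 17.4 CPM in the resistant libraries, and fell by 1.21 on the log2 scale (SE 0.24, adjusted p = 0.0400 with edgeR). SLC17A3, a urate and organic anion carrier of the proximal tubule, stood at 3.41 and 3.68 CPM against 7.23 and 7.37 (log2 fold change 1.04 ± 0.25 SE, adjusted p = 0.0681). Both resistant values were above both parental ones, but the difference passed with resistant replicate 1 (0.0138) or 2 (0.0210) left out. SLC17A1, a neighbour of SLC17A3 on chromosome 6 and likewise a carrier of urate and phosphate at the apical membrane, stood at 2.92 and 2.71 CPM against 4.45 and 2.79, and the lines overlapped. The call of SLC17A5 ended without parental replicate 1 (adjusted p = 0.0633) or 2 (0.0819), with unadjusted library totals (0.0540) and with limma-trend on log2(TPM + 1) (0.0873) or log2(TPM + 0.1) (0.0966).

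Of the 3 tested genes of the SLC34 and SLC20 phosphate carrier families SLC34A2 fell, and SLC20A1 and SLC20A2 did not pass. SLC34A2, the sodium-phosphate cotransporter of lung and gut, stood at 4.97 and 6.69 CPM in the parental and 0.968 and 1.86 CPM in the resistant libraries, a log2 fold change of -2.06 ± 0.41 (SE, edgeR adjusted p = 0.0426). The lines did not overlap. The call ended without parental replicate 2 (log2 fold change -1.82, adjusted p = 0.0930) and with limma-trend on TPM (0.125 and 0.148 at the pseudocounts of 1 and 0.1, with log2 fold changes of -0.85 and -1.44). SLC20A1 stood at 92.2 and 86.6 CPM against 173 and 121, above both parental values in each resistant library, but its log2 fold change of 0.72 ± 0.20 missed the threshold (adjusted p = 0.0928). It passed with DESeq2 (0.0316), where 4.69% of all genes were called higher, and when resistant replicate 1 (0.44 on the log2 scale, adjusted p = 0.00429) or 2 (0.95, 0.00067) was left out. SLC20A2, which encodes PiT-2, the other ubiquitous carrier, stood at 24.9 and 24.2 CPM against 17.6 and 22.5 (log2 fold change -0.30 ± 0.19, adjusted p = 0.363). It passed without resistant replicate 2 (-0.49, adjusted p = 0.0253).

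Of the cation exporters SLC47A1 rose and SLC47A2 did not pass. SLC47A1, the apical exporter MATE1 that completes the secretion of cations such as metformin, stood at 3.21 and 2.13 CPM in the parental and 8.46 and 6.74 in the resistant libraries, and rose by 1.51 ± 0.32 on the log2 scale (adjusted p = 0.0494 with edgeR). SLC47A2, its kidney relative MATE2-K, stood at 0.195 and 1.94 CPM against 4.07 and 2.87 (1.70 ± 0.75, adjusted p = 0.210). Both genes had each resistant value above both parental ones, and they lie on chromosome 17 with 1 tested gene, ALDH3A2, between them. The parental libraries of SLC47A2 stood apart, at 2 and 20 counts. Its log2 fold change was 4.09 without parental replicate 2 (adjusted p = 0.00398) and 0.84 without parental replicate 1 (0.739). The call of SLC47A1 ended without parental replicate 1 (0.0772) or 2 (log2 fold change 1.24, adjusted p = 0.350), with limma-voom (0.0544), with a filter on the mean count that ignores the lines (0.0513) and with limma-trend on TPM (0.0946 and 0.117).

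Of the 9 tested SLC22 genes 0 passed with edgeR, although 4 had an unadjusted p under 0.05, as had 27% of all genes tested. With DESeq2 SLC22A3 (adjusted p = 0.0397) and SLC22A18 (0.0411) passed, both higher, and SLC22A18 also with library totals (0.0395). SLC22A3, the extraneuronal monoamine and cation carrier OCT3, stood at 13.6 and 14.2 CPM in the parental and 20.2 and 31.9 in the resistant libraries (log2 fold change 0.90 ± 0.26, edgeR adjusted p = 0.0942). SLC22A18 stood at 43.5 and 41.9 CPM against 65.7 and 68.8 (0.65 ± 0.15, adjusted p = 0.0547). The lines did not overlap for either gene. SLC22A18AS, named as the antisense partner of SLC22A18, stood at 0.195 and 0.485 CPM against 0.775 and 0.930 (1.29 ± 0.63, adjusted p = 0.245), and reads of the pair cannot be told apart if the counting ignored strand, which is not given in the sources used here. Without resistant replicate 1 SLC22A3 passed at a log2 fold change of 1.2 (adjusted p = 0.00128) and SLC22A18 at 0.69 (0.00189), and without resistant replicate 2 they passed at 0.53 (0.0268) and 0.61 (0.00397).

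SLC22A4 and SLC22A5, neighbours on chromosome 5, did not pass. SLC22A4, the ergothioneine carrier OCTN1, stood at 5.65 and 5.82 CPM in the parental and 3.23 and 3.72 in the resistant libraries (log2 fold change -0.72 ± 0.27, adjusted p = 0.153). SLC22A5, the carnitine carrier OCTN2, next to it, stood at 12.8 and 14.8 CPM against 10.6 and 9.15 (-0.48 ± 0.21, adjusted p = 0.211). Both genes had each resistant library below both parental ones. SLC22A4 passed without resistant replicate 2 (-0.83, adjusted p = 0.0440) and SLC22A5 without resistant replicate 1 (-0.59, adjusted p = 0.0426). Of the members without a firmly known substrate, SLC22A31 stood at 2.05 and 2.23 CPM against 0.839 and 0.465 (-1.67 ± 0.45, adjusted p = 0.0844), and it passed without resistant replicate 1 (0.0139) or 2 (0.0482). SLC22A23 stood at 7.31 and 6.59 CPM against 10.6 and 9.38 (0.52 ± 0.23, adjusted p = 0.202). SLC22A15 and SLC22A17, the latter a receptor for lipocalin-2, had log2 fold changes of 0.15 ± 0.37 and -0.12 ± 0.27, and their lines overlapped.

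Of the 5 tested SLCO genes, carriers of organic anions, 1 passed, SLCO4A1, which fell. It stood at 63.3 and 58.5 CPM in the parental and 32.1 and 31.9 in the resistant libraries, and fell by 0.93 on the log2 scale (SE 0.15, adjusted p = 0.0250 with edgeR). The resistant pair lay close together for SLCO4A1, with a mean of 32.0 ± 0.159 CPM (SD, n = 2). The call of SLCO4A1 ended without parental replicate 1 (adjusted p = 0.320) or 2 (0.194) and with limma-trend on TPM (0.0737 and 0.0790). SLCO1A2, a carrier of bile salts and steroid conjugates, had 18 and 15 counts in the parental and 3 and 0 in the resistant libraries, a ratio of parental to resistant CPM of 15.2 with an exact 95% counting interval of 4.76 to 77.3. Its adjusted p was 0.0503 with edgeR and 0.0220 with DESeq2, where 5.72% of all genes were called lower. With limma-voom it passed as well (adjusted p = 0.0435). SLCO1A2 entered the test through the parental line only, where it is higher, so the filter favours this difference in every such fit. Its log2 fold change ran from -7.17 to -2.99 over the 11 alternatives that tested it. SLCO4C1, the digoxin and thyroid hormone carrier of the proximal tubule, stood at 1.75 and 2.71 CPM against 4.13 and 4.73 (0.98 ± 0.34, adjusted p = 0.137), above both parental libraries in each resistant one, and passed without resistant replicate 1 (1.08, adjusted p = 0.0437).

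SLCO2B1, an uptake carrier of steroid sulfates and statins, separated the resistant libraries from each other. It stood at 87.5 and 86.1 CPM in the parental line, at 220 CPM in resistant replicate 1 and at 50.2 CPM in resistant replicate 2. The log2 fold change over both was 0.64 ± 0.60 (edgeR adjusted p = 0.530). Without resistant replicate 2 it was 1.34, and without resistant replicate 1 it was -0.79, so the direction depended on the resistant library kept. SLC22A15 showed the same order at a smaller size, at 11.7 and 8.72 CPM against 15.1 and 7.44. SLCO3A1, a carrier of prostaglandins and thyroxine, stood at 23.7 and 24.5 CPM against 29.6 and 22.5, with overlapping lines (0.11 ± 0.20, adjusted p = 0.742).

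**Figure D3:**
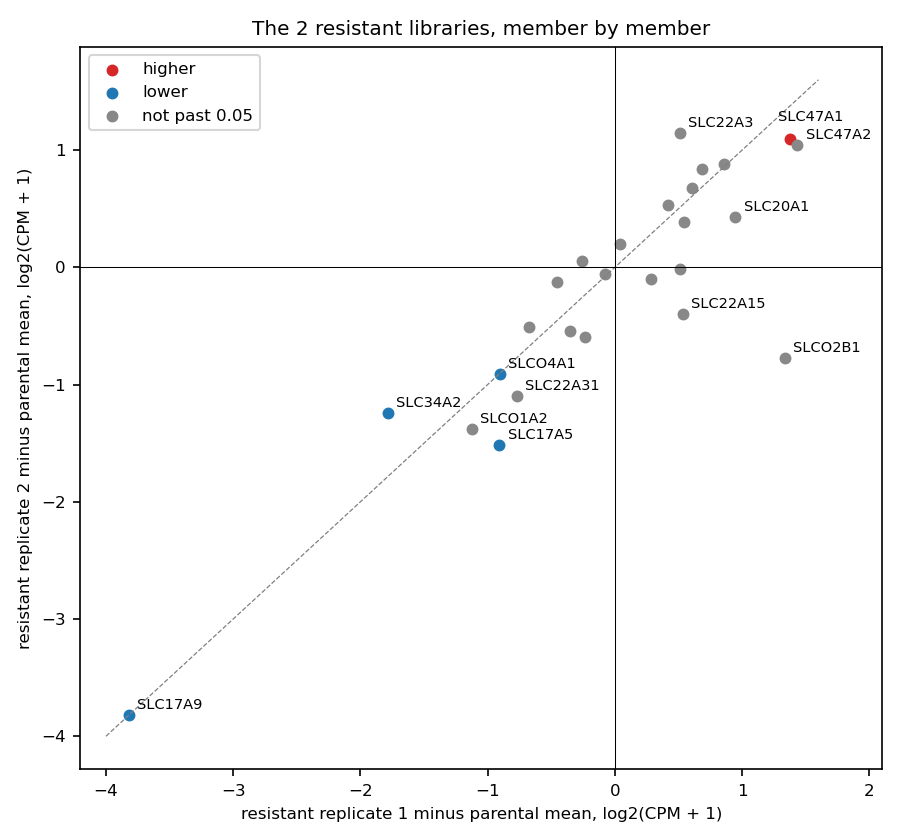
Difference of resistant replicate 1 (x axis) and resistant replicate 2 (y axis) from the mean of the 2 parental libraries, in log2(CPM + 1), for the 26 tested transporters, with the dashed line marking equal values. SLC17A9 lies farthest down, SLCO4A1 lies on the dashed line, and SLCO2B1 lies at 1.33 in resistant replicate 1 and -0.78 in resistant replicate 2.

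The sodium-driven carriers of the SLC5 family showed no call in either direction, with 0 of 3 past an unadjusted p of 0.05 in edgeR and 0 past an adjusted p of 0.05 in DESeq2. SLC5A2, the target of the gliflozin drugs, stood at 10.4 and 11.2 CPM in the parental and 11.2 and 12.6 in the resistant libraries (log2 fold change 0.13 ± 0.21, adjusted p = 0.717). SLC5A6, the carrier of biotin and pantothenate, stood at 39.8 and 33.0 CPM against 34.3 and 34.9 (-0.07 ± 0.17, adjusted p = 0.807). The lines overlapped in both genes. SLC5A3, the osmolyte carrier of myo-inositol, stood at 23.3 and 23.1 CPM against 19.5 and 15 (-0.42 ± 0.20, adjusted p = 0.230), below both parental libraries, and passed without resistant replicate 1 (-0.62, adjusted p = 0.01). SLC5A3 overlaps MRPS6 in the RefSeq annotation, so its reads are uncertain.

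**Figure D4:**
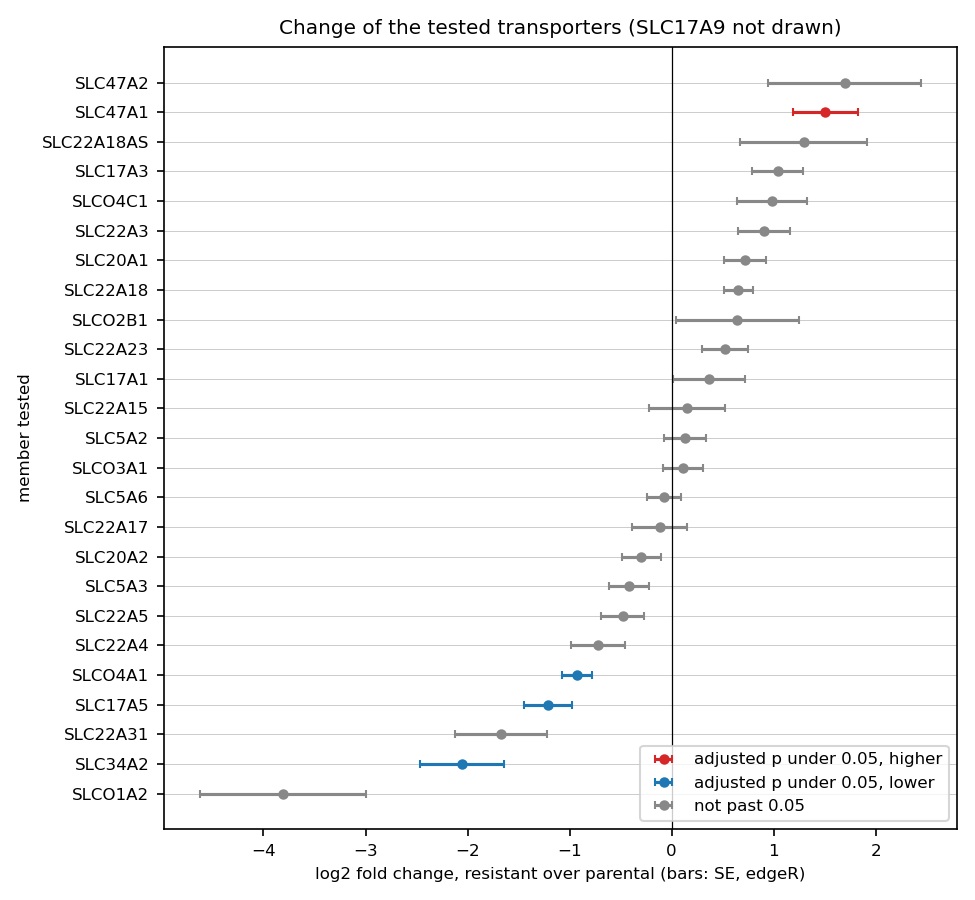
Log2 fold change (x axis, resistant over parental, with bars for the SE from edgeR) of 25 tested transporters, without SLC17A9, whose resistant libraries had 0 counts. SLCO4A1, SLC17A5 and SLC34A2 are past an adjusted p of 0.05 on the lower side and SLC47A1 on the higher side, while SLC47A2 and SLCO1A2 lie farther out with wider bars.

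Genes that work beside these carriers were followed in 12 lists, in which 64 genes were tested, 4 rose and 6 fell, against 6.4% called of all genes. PDZK1, a brush border scaffold that binds the tails of several SLC22, SLC34 and SLC17 carriers, rose from 2.34 and 2.71 to 10.4 and 15.8 CPM (log2 fold change 2.37 ± 0.32, adjusted p = 0.0163 with edgeR). It was the only 1 of 5 tested scaffolds and cofactors to pass, and the median log2 fold change of these 5 was -0.39. PDZK1IP1, the MAP17 protein that SLC5A2 needs for its activity, stood at 1027 and 981 CPM against 645 and 794 (-0.48 ± 0.16, adjusted p = 0.135). FXYD2, the regulatory subunit of the renal sodium pump, rose from 47.2 and 41.3 to 99.4 and 160 CPM (1.55 ± 0.25, adjusted p = 0.0259), while the other 3 tested pump subunits did not pass.

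In the glucose and lactate lists the calls were lower. SLC2A3, the high-affinity glucose carrier GLUT3, fell from 35.3 and 33.0 to 14.7 and 14.2 CPM (log2 fold change -1.24 ± 0.16, adjusted p = 0.0157 with edgeR), 1 of 9 tested glucose facilitators. SLC16A3, the lactate exporter MCT4, fell from 1031 and 988 to 355 and 466 CPM (-1.30 ± 0.18, adjusted p = 0.0184), 1 of 5 tested dicarboxylate and monocarboxylate partners, whose SLC13A2, SLC13A3 and SLC13A5 were at 0. Of the 4 apical efflux pumps 1 fell, ABCB1, the multidrug exporter P-glycoprotein, from 28.9 and 27.1 to 6.39 and 6.74 CPM (-2.09 ± 0.19, adjusted p = 0.00569). The median log2 fold changes of these lists were -0.14, -0.16 and 0.31. The calls of SLC2A3 (adjusted p = 0.0935 and 0.0534) and SLC16A3 (0.0719 and 0.0535) ended without parental replicate 1 and 2, and that of SLC2A3 also with limma-trend on TPM (0.0551 and 0.0580).

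Of 7 tested phosphate handling partners FGFR1, a receptor for FGF23, rose from 84.5 and 86.6 to 194 and 162 CPM (log2 fold change 1.06 ± 0.15, adjusted p = 0.0203 with edgeR), and STC1, the phosphate-regulating hormone stanniocalcin-1, fell from 101 and 96.7 to 14.3 and 20.6 CPM (-2.51 ± 0.22, adjusted p = 0.00540). The other 5 did not pass, the list median was -0.11, and PTH1R and FGF23 had 0 counts. Of 6 tested proximal tubule markers 1 rose, ANPEP, the brush border aminopeptidase N, from 141 and 149 to 232 and 228 CPM (0.66 ± 0.13, adjusted p = 0.0440), with a list median of 0.55. Of 8 tested nuclear factors of tubular genes (median 0.16), 4 volume and osmolyte genes (median -0.11), 1 distal marker (-0.60) and 7 markers of carcinoma and epithelium (-0.06), 0 passed with edgeR. Genes of these lists included AKR1B1, the sorbitol-forming aldose reductase, at 2855 and 2807 CPM against 3183 and 2275, SLC38A2, an amino acid carrier induced by osmotic stress, at 213 and 215 against 147 and 93.2, and the distal marker SCNN1A, a subunit of the epithelial sodium channel, at a low level of 5.16 and 7.08 CPM against 3.42 and 4.65. Of 5 tested blood, endothelial and stromal markers, with a median of -1.02, DCN, a matrix proteoglycan, at 11.98 and 13.3 CPM against 1.03 and 0.233 (-4.24 ± 0.50, adjusted p = 0.0126), and CD68, a lysosomal glycoprotein, at 84.8 and 88.4 against 44.7 and 40.6 (-1.02 ± 0.15, adjusted p = 0.0203), fell. Without parental replicate 1 or 2 the calls of FGFR1 (adjusted p = 0.202 and 0.173), ANPEP (0.638 and 0.564) and CD68 (0.140 and 0.183) ended. With limma-trend on TPM, at the pseudocounts of 1 and 0.1, those of FGFR1 (0.0641 and 0.0699) and ANPEP (0.120 and 0.130) ended too, as did that of DCN at the pseudocount of 0.1 (0.0641) and that of ANPEP without a count filter (0.0545).

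**Figure D5:**
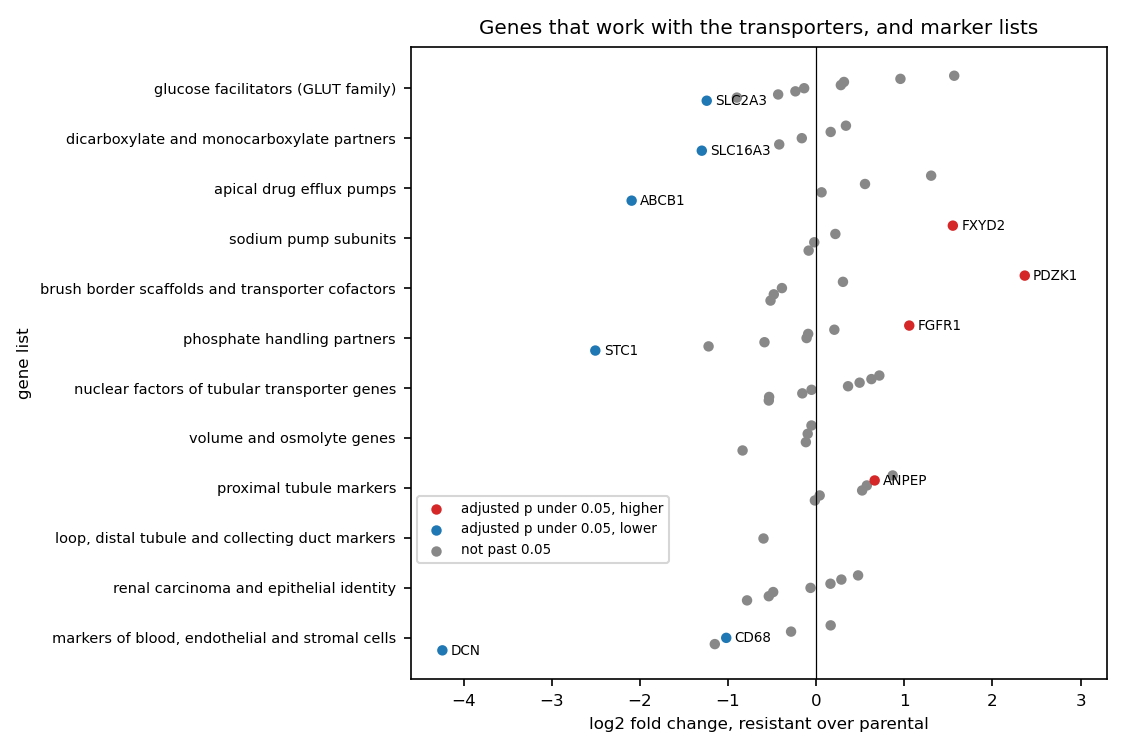
Log2 fold change (x axis, resistant over parental) of each tested gene in the 12 lists of partner and marker genes, 1 row per list, with genes past an adjusted p of 0.05 coloured and named. PDZK1, FXYD2, FGFR1 and ANPEP lie on the higher side, and ABCB1, STC1, SLC2A3, SLC16A3, DCN and CD68 on the lower side.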

How the data were processed

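RNA was measured in 2 parental and 2 resistant Caki-1 libraries, grouped by title and read as 150-bp pairs. The deposited tables give estimated counts and TPM (abundance scaled for length and library size) for 20114 symbols per library. The submitters' processing notes name STAR, RSEM, DESeq2 1.40.2, GRCh38 and hg19, without roles. Before the fit every estimated count was rounded, 3.16% of them being fractional. The 4 H3K27ac libraries and 4 inputs were not analysed here, since no gene annotation of the peaks' build was at hand.

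The whole table was fitted with edgeR 4.0.16 (R 4.3.3), using TMM factors, its quasi-likelihood test, a single term for the line and Benjamini-Hochberg adjustment over 12892 genes at 0.05. Levels are TMM-scaled CPM. Means are given ± SD and fold changes ± SE. The fit was tested on counts simulated with the same spread in all libraries, smaller than edgeR's common dispersion of 0.0287 for these data. That simulation lacks the wider spread of the resistant pair, so it cannot show how reliable the calls are here. Totals of 10584085 to 14664712 counts per library left members under the filter of 10 counts in 2 libraries as listings. The members, lists and tests were chosen with earlier results of these data known. Alternatives used DESeq2 1.42.0, or limma 3.58.1 (voom on counts, trend on log2 TPM), or another scaling, filter or threshold, added a replicate block, or left out each library. The strand setting of the counting is not given in the sources used here. Named are all members, and from each partner list up to 2 rises and 2 falls past the threshold, or the most abundant where none passed; PAX2, CA9, PDZK1IP1, LRP2 and other markers at 0 were named after their values were seen. Results of a few genes are not reported here. The RefSeq table (GRCh38.p14) matched 60 of the 63 members and served for gene order. Promoter windows came from RefSeq.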

Additional observations from a re-analysis of the deposited data

How the results depend on the processing

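SLC17A9 kept its direction and its side of the threshold under each alternative run. The number of members called higher, 1, was 4 with DESeq2, 2 with library totals, and 0 with limma-voom, limma-trend on log2(TPM + 1) or log2(TPM + 0.1), a mean count of 10 and a threshold of 0.01. It ran from 0 to 6 without single libraries. The number called lower, 4, was 1 with limma-trend at either pseudocount and at the threshold of 0.01, and ran from 2 to 9 without single libraries. Of the partner genes, 4 higher and 6 lower, 2 were higher with limma-trend at either pseudocount, and 0 and 2 were called at 0.01. Without single libraries 2 to 18 were higher and 3 to 25 lower. Over all genes the 382 higher and 443 lower became 605 and 738 with DESeq2, 243 and 282 with limma-trend on log2(TPM + 1), 217 and 243 on log2(TPM + 0.1), and 24 and 75 at 0.01. Without single libraries they ran from 140 to 3366 and from 256 to 3500. The high counts came without resistant replicate 1 (3366 and 3500) or 2 (2095 and 2509) and the low ones without parental replicate 1 (145 and 256) or 2 (140 and 267), with the single library left in a line taken to vary like the other pair. Library totals moved the share of higher calls from 46.3% to 58.7%. The cause of these moves was not tested.

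No label says that the replicate numbers pair the samples. The correlation of same-numbered deviations was -0.05, which cannot decide this with so few libraries. A replicate block gave 6 members higher and 6 lower, 7 partner genes higher, and 859 and 1026 genes in all. No called gene reversed. Some uncalled genes did, SLCO2B1 to -0.79 without resistant replicate 1. With library totals SLC5A6 was 0.011 and AKR1B1 0.038. Without single libraries the lowest and highest values were -0.20 and 0.069 for SLC5A6, -0.45 and 0.56 for SLC22A15, -0.31 and 0.060 for SLC22A17, -0.011 and 0.65 for SLC17A1, -0.10 and 0.29 for SLCO3A1, -0.79 and 1.34 for SLCO2B1, -0.31 and 0.16 for AKR1B1, and -0.41 and 0.57 for NNMT. SLCO1A2 was not tested with a mean count of 10 or with limma-trend, since it did not pass those filters. Depth limits the 15 low members, which were not tested.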

Other observations

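The deposited counts and TPM of a gene together imply the transcript length that the estimation assigned to it in each library. Relative to the median tested gene of the library, this length was 1.44 and 1.42 for SLC34A2 in the parental libraries, 0.562 in resistant replicate 1 and 1.63 in resistant replicate 2. The ratio of its highest to its lowest value, 2.91, was larger than that of 99.3% of the 12802 genes with a value in all 4 libraries. It follows that the resistant libraries of SLC34A2 change order with the unit, at 15 and 24 counts but 0.97 and 0.53 TPM. The value in resistant replicate 1 rests on 15 counts. The median ratio was 1.07 for the 24 members with a value and 1.06 for all genes. For SLCO2B1 the relative length was 1.10, 1.05, 1.02 and 1.33 in the same order, so its opposite values in the resistant libraries were seen in counts and in TPM alike.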
